A study of Homo sapiens with 22 samples.

Results

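RUNX1, FLI1, ERG, ETS1, MEIS1, ETV6 and MEF2C are the megakaryocyte transcription factor genes described here, followed through the chromatin around them while cells of the human leukemia line K562 were driven toward a megakaryocyte-like state. The members are every region of the 4 deposited count tables (H3K27ac, Jun, CTCF and Rad21) that overlaps the span of 1 of these 7 genes in RefSeq (GRCh38.p14) extended by 50 kb on each side. They number 598 of 409446 regions. Of these, 175 belong to H3K27ac, 220 to Jun, 69 to CTCF and 134 to Rad21. By gene and in H3K27ac, RUNX1 has 54 regions, ETS1 32, MEIS1 26, ERG 21, ETV6 21, MEF2C 17 and FLI1 4. No region belongs to more than 1 gene, although the windows of ETS1 and FLI1, neighbours on chromosome 11, overlap by 2427 bp. The rule used the position of the regions and no measured value, but the genes were chosen with earlier results of these data known.

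All groups were wild-type K562 cells, grown with 25 nM PMA, a phorbol ester, for 0, 6 or 72 h, and profiled by CUT&RUN, in which an antibody directs a nuclease to cut out the DNA beside its target. Antibodies against H3K27ac, Jun and CTCF were used at all 3 times and an antibody against Rad21 at 0 and 72 h, so the 22 libraries form 11 groups of 2. The labels do not say whether both libraries of a group came from separate cultures, so a p-value measures the spread between these libraries, which may be technical. K562 is a line of erythroid-like leukemia cells, and its use limits the groups as a model of normal megakaryocytes.

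The genes encode DNA-binding proteins of 4 families. FLI1, ERG, ETS1 and ETV6 are ETS proteins, which bind GGAA sites; FLI1 and ERG sustain the megakaryocyte program and blood stem cells, ETS1 acts in lymphoid cells and megakaryocytes, and ETV6 is mainly a repressor needed for normal platelet numbers. RUNX1 binds DNA with its partner CBFB and works beside GATA and ETS factors in megakaryocytes. MEIS1 is a homeodomain partner of HOX and PBX proteins in stem cells and megakaryocytes, and MEF2C is a MADS-box factor that acts in muscle, in lymphoid cells and in megakaryocytes. H3K27ac marks active promoters and enhancers, Jun is a subunit of AP-1, which phorbol esters activate, CTCF is an insulator protein at loop anchors, and Rad21 is a subunit of the cohesin ring that holds loops together.

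Counts in regions totalled 12634261 to 27266241 per H3K27ac library, 4766421 to 18883962 per Jun library, 2553677 to 6068421 per CTCF library and 4398797 to 7285286 per Rad21 library. The Jun libraries at 72 h were the deepest of that antibody, and their counts on the mitochondrial chromosome made up 8.58% and 9.07% against 24% and 27.7% at 0 h. No pair of replicates was a duplicate. As a check of the line, the erythroid genes TAL1, KLF1, TFRC and EPOR held a deposited H3K27ac peak in both 0 h libraries, while GATA1, HBG1, HBG2 and HBE1 did not. Among markers of other cells, such peaks were also held by 1 of 3 T cell genes (CD3D) and by 2 of 3 B cell genes (CD79A among them). They were held by 0 of 4 hepatocyte and fibroblast genes.

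At 72 h, H3K27ac had been gained across ERG and ETS1 and at the 4 small regions of FLI1. It was rearranged within RUNX1, changed in both directions at MEIS1 and ETV6, and reduced across MEF2C. Of 175 regions, 95 were higher and 52 lower than at 0 h at an adjusted p under 0.05 in edgeR's quasi-likelihood test over all 94865 regions tested, where 43.4% were higher and 38.1% lower. All 21 regions of ERG, all 32 of ETS1 and all 4 of FLI1 were higher, with median log2 fold changes of 5.50, 4.80 and 5.00. The ERG median is 4.62 with the regions that had no counts at 0 h set at their bound. In these 3 genes 0 regions held a deposited peak in both 0 h libraries, against 11, 16 and 2 at 72 h. Regions that entered the count tables through later peaks could hardly be lower. These counts and medians therefore partly follow from which regions the count tables hold. At MEF2C, 16 of 17 regions were lower and 1 was higher (median −1.51). RUNX1 had 24 higher and 17 lower of 54 (median 0.32), MEIS1 7 higher and 12 lower of 26 (median −0.47), and ETV6 6 higher and 7 lower of 21 (median −0.27). The median over all regions tested was 0.18. All 175 regions passed the filter on low counts.

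Counts summed over all regions of a gene window, in CPM (counts scaled to a common library size with TMM, edgeR's trimmed-mean scaling), gave 1 value per gene and library. These windows also hold regions that overlap the span of another gene. In H3K27ac these were 17 of 32 at ETS1, 14 of 54 at RUNX1, 5 of 17 at MEF2C and 4 of 26 at MEIS1. ERG had 2 of 21, ETV6 1 of 21 and FLI1 0 of 4. For ERG the sums were 4.49 and 3.48 CPM at 0 h, 82.1 and 89.0 at 6 h, and then 216 and 240 at 72 h. ETS1 had 23.1 and 23.4 CPM at 0 h, 53.5 and 52.1 at 6 h, and then 433 and 451 at 72 h. FLI1 had 0.284 and 0.263 CPM at 0 h, 1.96 and 0.886 at 6 h, and then 7.71 and 10.1 at 72 h. In these 3 genes both libraries of each later time lay above both libraries of the time before. The log2 fold changes from 0 to 72 h were 5.84 ± 0.11 (SE) for ERG, 4.25 ± 0.07 for ETS1 and 4.99 ± 0.42 for FLI1, with adjusted p-values of 9.95e-23, 8.88e-23 and 8.15e-11. The time of the gain differed in size: ERG rose by 4.43 log2 units by 6 h and a further 1.41 by 72 h, whereas ETS1 rose by 1.18 by 6 h and a further 3.07 after that. FLI1 rose by 2.29 and then 2.70. All of these steps passed the test.

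The other 4 genes carried H3K27ac in the untreated cells. MEF2C fell from 539 and 549 CPM at 0 h to 316 and 364 at 6 h and then 267 and 294 at 72 h, a log2 fold change of −0.96 ± 0.08 from 0 to 72 h (adjusted p = 1.89e-10). MEIS1 fell from 196 and 218 CPM to 124 and 125 at 6 h and stood at 154 and 162 at 72 h, −0.39 ± 0.06 against 0 h (adjusted p = 4.18e-06). Of the measured times, MEIS1 was therefore lowest at 6 h, and it was higher by 0.34 at 72 h than at 6 h (adjusted p = 4.83e-05). ETV6 showed the same order of times, with 179 and 184 CPM at 0 h, 129 and 137 at 6 h, and then 184 and 186 at 72 h. Its fall of 0.45 by 6 h and rise of 0.48 after 6 h both passed the test, and its 72 h level was not distinguishable from 0 h (0.03 ± 0.06, adjusted p = 0.672). RUNX1 had 876 and 873 CPM at 0 h, 700 and 796 at 6 h, and then 786 and 819 at 72 h, a difference of −0.22 ± 0.09 by 6 h (adjusted p = 0.0208) and of −0.12 ± 0.09 from 0 to 72 h (adjusted p = 0.174). The RUNX1 call at 6 h was lost without any one of 5 of the 6 libraries, all but 6 h replicate 2 (−0.23 to −0.13). With scaling by total counts both RUNX1 differences changed sign, reaching 0.11 (6 h, adjusted p = 0.0569) and 0.11 (72 h, adjusted p = 0.047), so the direction of this sum is not settled. The ETV6 difference at 72 h was 0.26 under total counts (adjusted p = 2.92e-05), in the same direction and past the threshold. Over all 46691 gene windows tested, 35.1% were higher and 53.2% lower at 72 h, with a median of −0.30.

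Per kb of region the order of the genes changed. At 0 h MEF2C was the most acetylated, at 24.8 ± 0.318 CPM per kb (SD, n = 2), followed by RUNX1 at 19.7 ± 0.04, MEIS1 at 13.5 ± 1.02, ETV6 at 9.91 ± 0.183, ETS1 at 0.862 ± 0.00881, ERG at 0.262 ± 0.047 and FLI1 at 0.157 ± 0.00829. At 72 h the order was RUNX1 at 18.1 ± 0.529, ETS1 at 16.4 ± 0.483, ERG at 15 ± 1.1, MEF2C at 12.8 ± 0.876, MEIS1 at 10.3 ± 0.339, ETV6 at 10.1 ± 0.0846 and FLI1 at 5.09 ± 0.949. Libraries of neighbours in the order overlapped at 72 h for MEIS1 and ETV6 and at 6 h for RUNX1 and MEF2C; at 0 h no neighbours overlapped. FLI1, with a large fold change, thus remained the gene with the lowest density at all 3 times. At ERG, ETS1 and FLI1 no region held a peak in both 0 h libraries. Their low densities at 0 h thus partly follow from which regions the count tables hold.

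**Figure D1:**
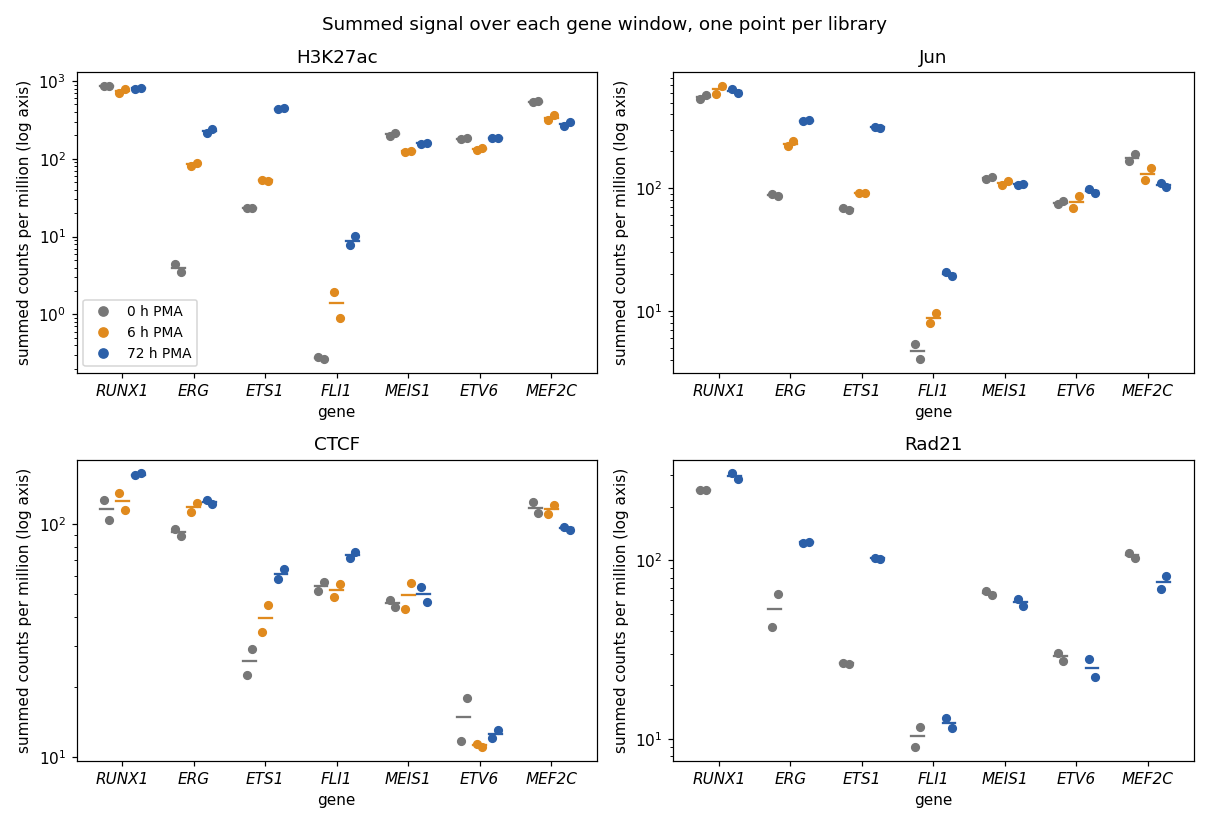
CPM summed over all regions of each gene window on a log axis, 1 panel per antibody, with 1 point per library and a line at the mean of 2 libraries; grey is 0 h, orange 6 h and blue 72 h of PMA. H3K27ac at ERG climbs from 4.49 and 3.48 to 216 and 240 CPM, while the RUNX1 points stay between 700 and 876.

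At ERG, whose product is an ETS activator of stem cells and megakaryocytes, the region with the highest mean H3K27ac lay outside the gene, above its high-coordinate end, at chr21:38679081-38681185. It had 1.25 and 0.632 CPM at 0 h, 32.6 and 35.9 at 6 h, and then 98.0 and 118 at 72 h. From 0 to 72 h it rose by 6.85 ± 0.19 log2 units (adjusted p = 5.48e-20). A region within the gene, chr21:38645413-38647440, had 0.227 and 0.369 CPM at 0 h, 30.7 and 34.4 at 6 h, and then 46.1 and 45.9 at 72 h. It rose by 6.73 log2 units in the first 6 h and by 0.49 after that, so most of its gain was present at 6 h. That later rise was the smallest among the 21 ERG regions. By 6 h 14 of the 21 ERG regions were higher and 0 lower, and 20 were higher at 72 h than at 6 h. RefSeq lists 4 promoter windows for ERG, and none of them overlapped a region in any of the 4 tables; the H3K27ac region nearest to the promoter at chr21:38660618-38660917 was 4.3 kb away.

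In log2 units ETS1, unlike ERG, gained more of its acetylation after 6 h. In CPM the larger rise of the summed signal came after 6 h at both genes. Inside the gene, chr11:128466330-128468003 had 0.568 and 0.105 CPM at 0 h, 1.40 and 1.28 at 6 h, and then 28.3 and 27.7 at 72 h. Both 72 h libraries stood above all others, by 6.39 ± 0.27 log2 units against 0 h (adjusted p = 4.96e-17) and 4.39 against 6 h. The region with the highest mean level, chr11:128625909-128627590, lay in the 97.6 kb between the spans of ETS1 and FLI1, 38.4 kb from ETS1 and 57.5 kb from FLI1. It had 7.72 and 7.32 CPM at 0 h, 11.4 and 14.3 at 6 h, and then 63.6 and 77.2 at 72 h (log2 fold change 3.23 ± 0.14 from 0 to 72 h, adjusted p = 5.28e-17). Of the 32 ETS1 regions, 15 lay in the gene, 6 below it and 11 above it, on the side of FLI1. At 6 h 19 of them were higher than at 0 h, and all 32 were higher at 72 h than at 6 h. The region chr11:128428704-128429543 had no counts in either 0 h library and a mean of 4.87 CPM at 72 h, at least 59.4-fold higher against a floor of 3 counts over the group; it is given here after its values were seen.

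FLI1, of the same ETS subfamily as ERG, had 4 small H3K27ac regions, 1 in the gene and 3 beyond its high-coordinate end. The brightest, chr11:128828263-128828895, had 0.114 and 0 CPM at 0 h, 1.19 and 0.492 at 6 h, and then 3.44 and 4.33 at 72 h. Both 0 h libraries together held 2 counts there, and the ratio of 72 h to 0 h was 71.1, with an exact binomial 95% interval of 19.4 to 591 that covers counting error only. The region inside the gene, chr11:128709610-128710096, the single one there, went from 0 and 0.158 CPM at 0 h to 1.95 and 2.37 at 72 h. None of these 4 regions exceeded a mean of 3.89 CPM in any group, compared with 70.4 for the brightest ETS1 region at 72 h. RefSeq promoter windows were not listed for FLI1 or ETS1 in the table used.

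In RUNX1, the runt-domain factor of definitive blood formation, single regions moved in both directions. The gene is on the minus strand, so its low-coordinate side is its 3′ side. All 8 regions below the low-coordinate end of the gene were higher at 72 h, as were 14 of 39 within the gene, where 15 were lower. The brightest RUNX1 region of the untreated cells, chr21:34905441-34908482 inside the gene, had 253 and 249 CPM at 0 h, 61.8 and 73.4 at 6 h, and then 18.8 and 17.7 at 72 h. Every later library was below the earlier ones, and the log2 fold change was −1.89 by 6 h and −3.78 ± 0.12 by 72 h (adjusted p = 3.45e-19). The 4 regions nearest to it, from chr21:34904706-34904930 to chr21:34910059-34910303 and taken up after their values were seen, fell too, with log2 fold changes of −3.81 to −2.29 at 72 h. Nearer the 3′ end of the gene, chr21:34806164-34808930 had 4.88 and 4.53 CPM at 0 h, 62.6 and 85.9 at 6 h, and then 123 and 133 at 72 h. It rose by 3.98 log2 units by 6 h and by 4.77 ± 0.16 by 72 h (adjusted p = 4.85e-19), and at 72 h it was the brightest region of the gene.

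Chosen after its values were seen, chr21:34835713-34837634 rose from a mean of 2.47 CPM at 0 h to 18.0 at 6 h and then 39.3 at 72 h. The region over the RefSeq promoter at chr21:34888650-34888949, chr21:34888487-34890060, had 59.1 and 60.9 CPM at 0 h, 40.4 and 44.5 at 6 h, and then 35.3 and 37.4 at 72 h. By 72 h it had fallen, with a log2 fold change of −0.72 ± 0.10 (adjusted p = 6.47e-07). The region at the high-coordinate end of the gene, chr21:35047686-35049619, also chosen after its values were seen, had means of 49.1, 38.7 and 47.1 CPM at 0, 6 and 72 h and did not pass the test at 72 h (−0.06, adjusted p = 0.606). The lowest fold change of a RUNX1 region was −3.81; at chr21:34783367-34783652, chosen in the same way and without counts at 0 h, the level at 72 h was at least 14.6-fold higher. At 6 h 26 of the 54 regions were higher and 9 lower than at 0 h, and between 6 and 72 h 14 rose and 21 fell.

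**Figure D2:**
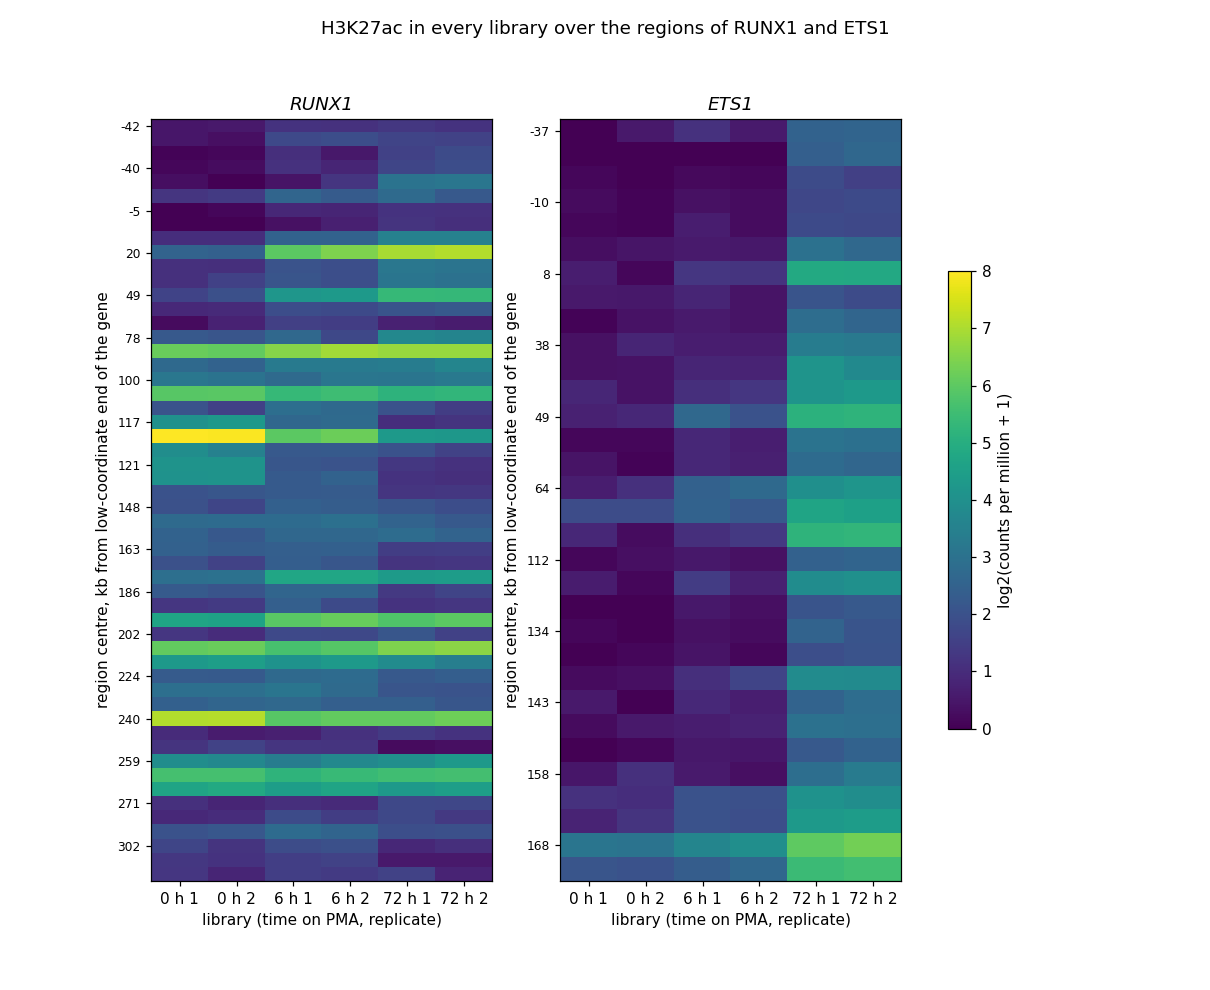
H3K27ac in each of the 6 libraries (columns, time on PMA and replicate) over every region of RUNX1 and of ETS1 (rows, in order of position, labelled by the distance in kb from the low-coordinate end of the gene), coloured by log2(CPM + 1). At RUNX1 the brightest row at 0 h, with 253 and 249 CPM, dims to 18.8 and 17.7 at 72 h while another row, nearer the low-coordinate end, brightens to 123 and 133; at ETS1 the 72 h columns are brighter throughout.

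MEF2C, a MADS-box factor, started with the highest H3K27ac density and lost part of it. Its brightest region, chr5:88733493-88736006 inside the gene, had 90.0 and 92.8 CPM at 0 h, 40.4 and 47.3 at 6 h, and then 24.5 and 30.7 at 72 h (log2 fold change −1.73 ± 0.12, adjusted p = 6.29e-13). Outside the gene, chr5:88923491-88925430 fell from 66.8 and 70.7 CPM to 21.3 and 19.6 at 72 h (−1.75 ± 0.11, adjusted p = 8.8e-14). RefSeq lists 7 promoter windows for MEF2C, and 3 of them overlap an H3K27ac region, of which 2 were lower and 1 higher. Over chr5:88884487-88884786, the region chr5:88883802-88885892 had 67.4 and 68.1 CPM at 0 h, 29.5 and 39.7 at 6 h, and then 34.3 and 37.8 at 72 h (−0.91 ± 0.12, adjusted p = 1.12e-07). Over chr5:88785462-88785761, the region chr5:88784889-88787128 had 34.4 and 33.8 CPM at 0 h, 35.5 and 50.1 at 6 h, and then 47.1 and 51.6 at 72 h. Both 72 h libraries lay above both 0 h libraries, and this was the MEF2C region called higher (0.53 ± 0.12, adjusted p = 0.000392). Its 6 h difference of 0.34 (adjusted p = 0.0263) missed the threshold without 0 h replicate 1 (0.35), 0 h replicate 2 (0.32) or 6 h replicate 2 (0.03).

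These 2 promoters of MEF2C are shown because they moved in opposite directions. They are on the minus strand, printed 5′ to 3′ from RefSeq GRCh38.p14, with capitals marking each match to the AP-1 motif TGANTCA (a palindrome, searched on both strands).
MEF2C promoter chr5:88785462-88785761, in the region that was higher at 72 h: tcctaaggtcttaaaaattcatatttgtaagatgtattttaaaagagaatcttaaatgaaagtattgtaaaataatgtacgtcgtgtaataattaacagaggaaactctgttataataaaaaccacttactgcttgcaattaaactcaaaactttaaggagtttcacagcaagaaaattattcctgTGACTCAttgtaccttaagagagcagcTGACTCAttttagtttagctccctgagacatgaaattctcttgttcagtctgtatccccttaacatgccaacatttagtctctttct
MEF2C promoter chr5:88884487-88884786, in a region that was lower at 72 h: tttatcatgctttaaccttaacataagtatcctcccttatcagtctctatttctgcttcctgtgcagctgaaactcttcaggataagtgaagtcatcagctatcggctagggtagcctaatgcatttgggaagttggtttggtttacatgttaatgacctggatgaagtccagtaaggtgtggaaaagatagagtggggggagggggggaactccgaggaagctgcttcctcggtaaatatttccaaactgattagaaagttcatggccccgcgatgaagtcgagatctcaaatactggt
The first holds 2 matches and the second holds none. Of 35116 RefSeq promoter windows of this length, 7.71% hold the motif. A match is a description of the letters and shows no binding; at the first promoter the Jun region chr5:88785001-88786447 did not pass the test at 72 h (−0.28 ± 0.20, adjusted p = 0.25), with 27.4 and 36.8 CPM at 0 h and 29.6 and 23.6 at 72 h.

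MEIS1, the homeodomain partner of HOX proteins, lost H3K27ac at its promoter and gained it at fewer regions within the gene. The region over the promoter, chr2:66435129-66437413, was its brightest, with 44.4 and 49.6 CPM at 0 h, 33.7 and 33.5 at 6 h, and then 22.8 and 24.9 at 72 h. The levels fell at each step, and the log2 fold change from 0 to 72 h was −0.98 ± 0.11 (adjusted p = 7.68e-09). A weaker region 30.2 kb into the gene, chr2:66464963-66465780, fell from 12.3 and 11.3 CPM to 3.11 and 2.00 (−2.20 ± 0.20, adjusted p = 2.56e-10). In the other direction, chr2:66495783-66496802 had 3.69 and 5.27 CPM at 0 h, 6.09 and 6.69 at 6 h, and then 14.4 and 14.4 at 72 h (1.68 ± 0.18, adjusted p = 3.38e-09). By 6 h 1 region of MEIS1 was higher and 12 were lower, and between 6 and 72 h 11 rose and 6 fell, the order of times seen in its sum. The MEIS1 promoter is shown because 3 of the 4 readouts have a region over it and because it holds letters of motifs of other members: capitals mark 1 match to the RUNX motif TGTGGT and 1 match to the ETS motif, spelled CCGGAAG, each searched on both strands. The sequence is from RefSeq GRCh38.p14, plus strand, 5′ to 3′.
MEIS1 promoter chr2:66434875-66435174: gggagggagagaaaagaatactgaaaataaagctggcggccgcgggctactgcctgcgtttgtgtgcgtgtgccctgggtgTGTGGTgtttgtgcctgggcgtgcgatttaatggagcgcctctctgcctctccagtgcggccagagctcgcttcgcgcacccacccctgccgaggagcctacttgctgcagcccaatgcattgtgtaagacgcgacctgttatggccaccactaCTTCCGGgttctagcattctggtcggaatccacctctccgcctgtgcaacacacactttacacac
Of the RefSeq promoter windows, 13.1% hold the RUNX letters and 10.3% the ETS letters.

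At ETV6, the gene of an ETS repressor, the promoter region was lower and an internal region higher at 72 h. The promoter region chr12:11648309-11649749 had 52.0 and 52.1 CPM at 0 h, 22.6 and 24.6 at 6 h, and then 31.1 and 31.4 at 72 h. It was lowest at 6 h, and the difference from 0 to 72 h was −0.74 ± 0.10 (adjusted p = 4.3e-07). The next region, chr12:11649816-11651553, chosen after its values were seen, had means of 30.1, 27 and 28.5 CPM and did not pass the test at 72 h (−0.08, adjusted p = 0.549). At 70.1 kb into the gene, chr12:11718666-11720947 had 1.14 and 1.48 CPM at 0 h, 8.47 and 6.45 at 6 h, and then 31.9 and 33.6 at 72 h. It rose by 4.64 ± 0.19 log2 units (adjusted p = 2.41e-17). The listed ETV6 promoter holds none of the AP-1, ETS and RUNX letters nor the GATA motif AGATAA, which 10.3% of promoter windows hold.

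**Figure D3:**
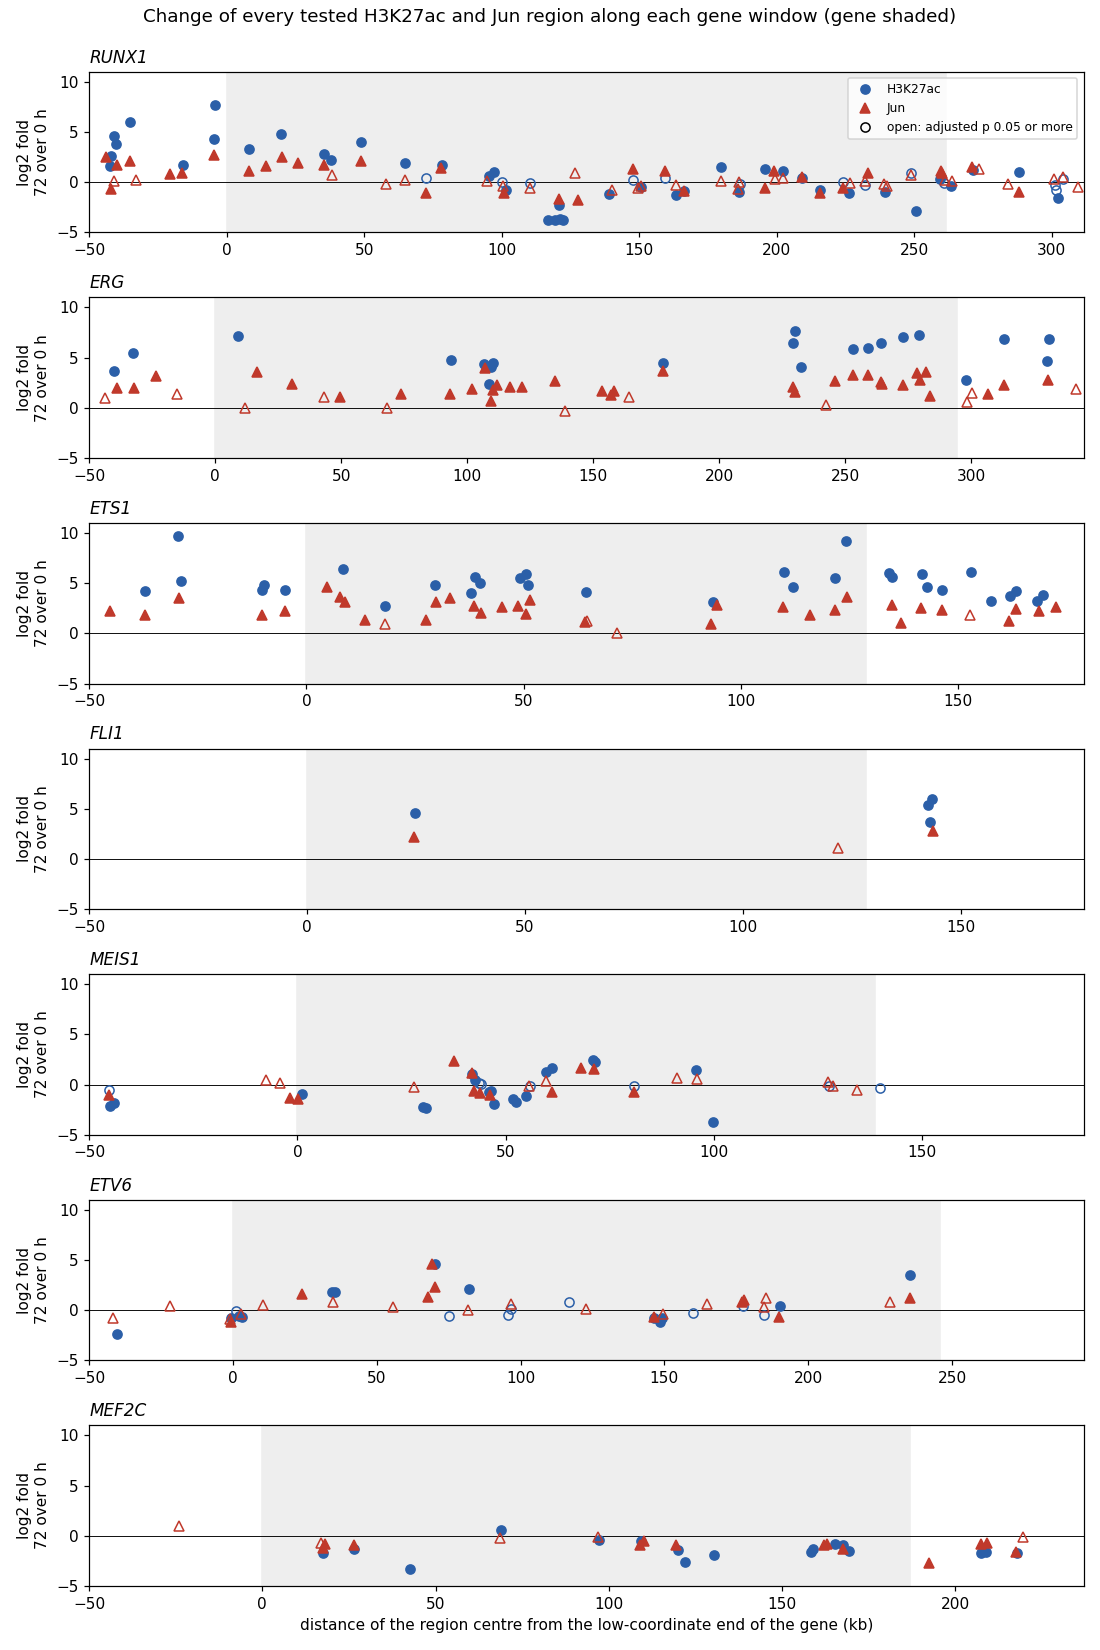
Log2 fold change from 0 to 72 h of every tested H3K27ac region (blue circles) and Jun region (red triangles) against its distance in kb from the low-coordinate end of each gene, with the gene shaded; filled symbols passed the test at an adjusted p under 0.05. All 21 H3K27ac regions of ERG and all 32 of ETS1 lie above 0, 16 of 17 of MEF2C lie below 0, and RUNX1 has points down to −3.81 near 120 kb.

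The first 6 h already divided the genes. In H3K27ac, 65 of the 175 regions were higher and 40 lower at 6 h than at 0 h, where 32.3% of all regions tested were higher and 26.3% lower. At MEF2C 14 of 17 were lower, at MEIS1 12 of 26, and at ETV6 3 were higher and 5 lower; at FLI1 1 of 4 was higher. Between 6 and 72 h, 88 regions rose and 42 fell, beside 33.1% and 30.8% of all regions. Scaling by total counts, which moved the median of all regions by 0.33 at 6 h and by 0.24 at 72 h against 0 h, gave 77 higher and 28 lower at 6 h.

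Jun, the AP-1 subunit, was measured at 220 regions, of which 212 passed the filter on low counts (3 of 6 at FLI1). At 72 h 102 were higher and 34 lower than at 0 h, beside 28% and 25.7% of all 132947 regions tested. ETS1 had 33 higher and 0 lower of 37 tested, ERG 35 and 0 of 46, FLI1 2 and 0 of 3, RUNX1 21 and 10 of 61, ETV6 7 and 3 of 25, MEIS1 4 and 8 of 22, and MEF2C 0 and 13 of 18. ERG, ETS1 and FLI1 had no lower Jun call. None of their Jun regions held a deposited peak in both 0 h libraries, so there was little room for lower calls there. With scaling by total counts, which moved the median of all Jun regions by 0.56, 134 were higher and 7 lower, so the number of lower Jun calls depends on the scaling. These totals include mitochondrial counts, which made up 24% and 27.7% of Jun counts at 0 h and 9.07% and 8.58% at 72 h. Their part in that move was not tested, nor were totals without them. Without Jun 72 h replicate 2, 90 regions were called in place of 136, and 92 without replicate 1. With the mitochondrial regions left out of the whole TMM fit, an alternative added after seeing the data, 136 regions were called, the same number. In that fit 205 regions were tested in place of 212. Depth of the Jun libraries also changed with time, and its part in these counts was not tested.

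At single regions, Jun at ERG chr21:38679297-38680915, inside the brightest H3K27ac region, had 8.17 and 9.32 CPM at 0 h, 27.7 and 29.9 at 6 h, and then 43.8 and 41.7 at 72 h (2.29 ± 0.20, adjusted p = 2.46e-08). At ETS1 chr11:128463174-128463857, Jun had 0.292 and 0.860 CPM at 0 h, 2.04 and 1.28 at 6 h, and then 13.5 and 14.9 at 72 h (4.59 ± 0.38, adjusted p = 1.5e-08). At FLI1 chr11:128828203-128829008, it had 2.33 and 0.860 CPM at 0 h, 2.95 and 5.11 at 6 h, and then 12.2 and 10.4 at 72 h (2.82 ± 0.35, adjusted p = 1.3e-06). In each of these 3 regions both 72 h libraries were above all others. At ETV6 chr12:11719707-11720411, inside the gained H3K27ac region, Jun rose from 2.04 and 2.44 to 10.5 and 11.2 CPM at 72 h (2.27 ± 0.32, adjusted p = 4.93e-06). At RUNX1 chr21:34908090-34908988, in the block that lost H3K27ac, it had 50.5 and 46.4 CPM at 0 h, 17.9 and 18.2 at 6 h, and then 18.0 and 13.5 at 72 h (−1.62 ± 0.19, adjusted p = 6.31e-07). At MEF2C chr5:88884096-88885127, it fell from 22.8 and 27.7 to 7.72 and 9.49 CPM at 6 h and then 10.9 and 9.55 at 72 h (−1.30 ± 0.19, adjusted p = 1.12e-05). These last 2 falls also passed the test under total counts, at −1.06 and −0.74.

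By gene window, Jun rose at ETS1 by 2.21 ± 0.10 log2 units, at FLI1 by 2.08 ± 0.21 and at ERG by 2.02 ± 0.11 from 0 to 72 h. For ETS1 the sums were 69.6 and 66.2 CPM at 0 h, 91.7 and 90.7 at 6 h, and then 316 and 312 at 72 h, and for ERG 89.4 and 86.1, 219 and 243, and 354 and 358. ERG rose by 1.40 by 6 h and ETS1 by 0.43, while between 6 and 72 h ERG rose by 0.62 and ETS1 by 1.79. Of all 50841 gene windows tested, 28.3% were higher and 48.3% lower. ETV6 rose by 0.31 ± 0.10 (adjusted p = 0.00541) and by 0.87 under total counts, but was not called without 0 h replicate 1 (0.27) or 72 h replicate 1 (0.25). MEF2C fell from 168 and 189 to 111 and 103 CPM (−0.74 ± 0.10, adjusted p = 3.45e-07), but by 0.17 under total counts (adjusted p = 0.209). RUNX1 did not pass the test (0.15 ± 0.14, adjusted p = 0.301) except under total counts (0.72, adjusted p = 0.000226), and MEIS1 did not (−0.16 ± 0.09, adjusted p = 0.0906), its value under total counts being 0.40 (adjusted p = 0.00202).

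At 6 h 36 Jun regions were higher and 13 lower than at 0 h, beside 13.1% and 12.2% of all regions, and ERG had 15 of the 36. Total counts gave 46 higher and 9 lower. Between 6 and 72 h 63 rose and 11 fell, beside 12.7% and 13.5%, and ETS1 had 29 of the 63; total counts gave 86 and 1. Without Jun 72 h replicate 1 or replicate 2, 38 and 34 regions were called between 6 and 72 h in place of 74.

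H3K27ac and Jun come from different libraries, so their changes can be set side by side where regions overlap by at least 1 bp. Of the 65 H3K27ac regions of these genes over a Jun region called higher at 72 h, 61 were higher (93.8%) and 0 lower. Over all regions the share higher was 96.7%. ERG had 15 of the 65, ETS1 26 and FLI1 2. At these genes every H3K27ac region was higher, with or without an overlapping Jun region. None of their H3K27ac or Jun regions held a peak in both 0 h libraries. Agreement there thus partly follows from which regions the count tables hold. Of the 32 over a Jun region called lower, 19 were lower (59.4%) and 7 higher (21.9%), beside 71.2% and 9.27% over all regions. Over a Jun region that was not called, 14 of 34 were higher (41.2%) and 9 lower (26.5%), beside 51.9% and 19.5%. Without an overlapping Jun region, 13 of 44 were higher (29.5%) and 24 lower (54.5%), beside 22.9% and 55.3%. Over 146 overlapping pairs the log2 fold changes had a Pearson correlation of 0.881. This is a description across regions that share libraries, some of them counted in more than 1 pair. It pools the genes and so includes differences between them, and it was not computed within a gene. In 7 pairs the calls were opposite, H3K27ac higher and Jun lower, at RUNX1 in 4, MEIS1 in 2 and ETV6 in 1. With total counts in both tables, a setting added after seeing the data, 0 of the 146 pairs had opposite calls, because none of these Jun regions was called lower any more. Under that setting 74 of the 81 regions over a higher Jun region were higher (91.4%, beside 92.5% over all regions), and all 5 over a lower Jun region were lower (beside 74.4%).

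**Figure D4:**
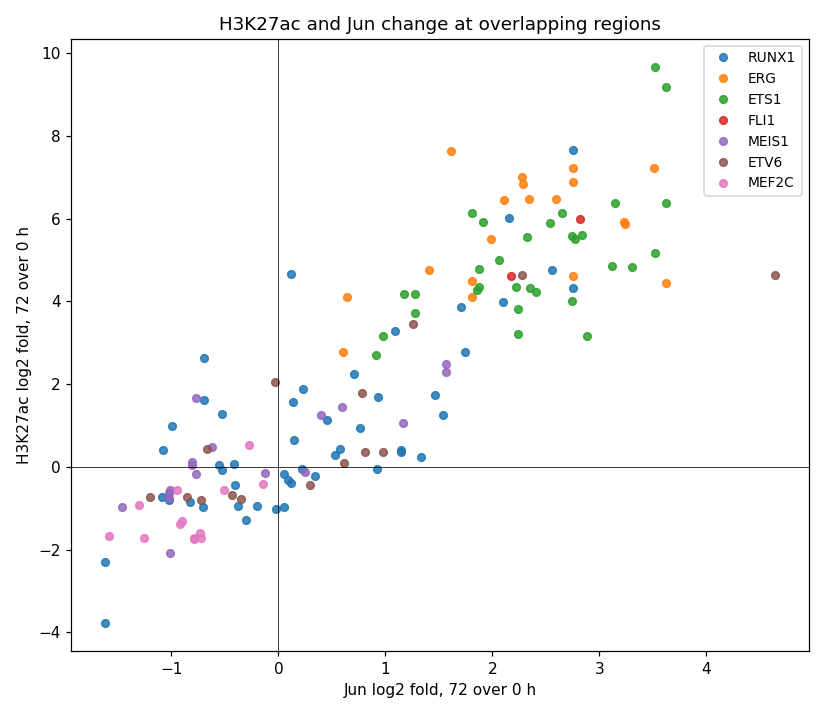
Log2 fold change of H3K27ac against that of Jun from 0 to 72 h for the 146 overlapping pairs of regions, coloured by gene. ERG, ETS1 and FLI1 fill the upper right, MEF2C the lower left, and RUNX1 reaches both, with a Pearson correlation of 0.881 over all pairs.

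CTCF, the insulator protein, changed at few regions. Of 59 regions tested (69 in all), 9 were higher and 0 lower at 72 h than at 0 h, beside 4.07% and 2.72% of all 58156 regions: 4 at ETS1, 3 at ERG and 2 at RUNX1. These were weak sites at 0 h, none above a mean of 0.977 CPM. At RUNX1 chr21:34807496-34808035, inside the gained H3K27ac region and chosen after its values were seen, CTCF had 1.53 and 0.361 CPM at 0 h, 3.56 and 5.70 at 6 h, and then 9.91 and 10.1 at 72 h (3.25 ± 0.59, adjusted p = 0.0074). The strongest CTCF site of each gene did not pass the test at 72 h. At ERG chr21:38505642-38506319 it had 36.2 and 36.1 CPM at 0 h and 33.9 and 31.3 at 72 h, and at MEF2C chr5:88727676-88728331 50 and 49.1 CPM at 0 h and 27.4 and 32.7 at 72 h (−0.71 ± 0.25, adjusted p = 0.0832). At 6 h 0 of 59 regions were called in edgeR's quasi-likelihood test or in DESeq2's Wald test, and 9 had an unadjusted p under 0.05 in edgeR; of all regions 2.33% were higher and 0.325% lower. Between 6 and 72 h 3 were higher and 0 lower, beside 0.449% and 1.73%.

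The number of CTCF calls moved with single libraries. The 9 calls at 72 h became 1 and 0 without 0 h replicates 1 and 2, 2 and 1 without 72 h replicates 1 and 2, and 15 and 16 without 6 h replicates 1 and 2. At 6 h 1 region was called without 0 h replicate 2 or without 6 h replicate 2. Between 6 and 72 h 0 regions were called without either 72 h library and 1 without 0 h replicate 2 or 6 h replicate 2. By gene window, 6.8% of all windows were higher and 16.9% lower at 72 h, and ETS1 rose from 22.4 and 29.2 CPM at 0 h to 58.1 and 64.1 at 72 h (1.26 ± 0.19, adjusted p = 0.000237; 1.49 under total counts, adjusted p = 3.95e-06). The CTCF sums of RUNX1 (0.50, adjusted p = 0.0153), FLI1 (0.46, adjusted p = 0.0322) and ERG (0.43, adjusted p = 0.0259) were also called higher. These 3 calls were lost under total counts, at 0.73, 0.69 and 0.66, with adjusted p-values of 0.0607, 0.0667 and 0.0971, and without either 72 h library.

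Rad21, the cohesin subunit, was called higher mainly at ETS1, RUNX1 and ERG. Of 109 regions tested (134 in all), 35 were higher and 5 lower at 72 h, beside 15.4% and 7.91% of all 83750 regions. ETS1 had 14 higher and 0 lower of 16, ERG 9 and 0 of 18, RUNX1 10 and 1 of 39, ETV6 1 and 2 of 8, MEIS1 1 and 0 of 10, MEF2C 0 and 2 of 17, and FLI1 0 of 1 (0 also at an unadjusted p under 0.05 in edgeR). Without 72 h replicate 1 or replicate 2, 25 and 26 regions were called in place of 40. At ETS1 chr11:128621635-128622046, Rad21 had 1.42 and 0.422 CPM at 0 h and 9.53 and 9.80 at 72 h (3.28 ± 0.47, adjusted p = 4.25e-05). At ERG chr21:38679451-38680282, over the brightest H3K27ac region, it had 3.77 and 2.95 CPM at 0 h and 21.3 and 20.2 at 72 h (2.60 ± 0.31, adjusted p = 6e-06). Both 72 h libraries were above both 0 h libraries at each.

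The Rad21 region of RUNX1 with the highest mean level went the other way. At chr21:34907956-34909003 it had 42.6 and 38.2 CPM at 0 h and 15.3 and 16.4 at 72 h (−1.35 ± 0.24, adjusted p = 0.000352), so that H3K27ac, Jun and Rad21 all fell within the same few kb of the gene. The CTCF region that overlaps this Rad21 region did not pass the test at 72 h (log2 fold change 0.098). Where RUNX1 gained H3K27ac, Rad21 at chr21:34836024-34836647 rose from 2.20 and 2.32 to 17.3 and 9.80 CPM (2.59 ± 0.38, adjusted p = 5.2e-05). At the RUNX1 promoter, chr21:34888446-34888974, it had 12.7 and 16.5 CPM at 0 h and 13.7 and 15.1 at 72 h (−0.01 ± 0.26, adjusted p = 0.974). By gene window Rad21 rose at ETS1 by 1.96 ± 0.14, from 26.6 and 26.2 to 103 and 102 CPM, and at ERG by 1.24 ± 0.15, from 42.3 and 64.8 to 125 and 126 CPM. It fell at MEF2C by 0.51 ± 0.13 (adjusted p = 0.00263), and that call was lost without 72 h replicate 1 (−0.39). Over all windows 15.3% were higher and 15.2% lower.

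Of 13 CTCF regions that overlapped a Rad21 region called higher, 7 were higher (53.8%, beside 21.9% over all such regions), and of 24 over a Rad21 region that was not called, 0 were, beside 1.8% over all such regions, so that the second count is near the background. Of 39 Rad21 regions over a Jun region called higher, 27 were higher (69.2%, beside 68.6% over all such regions).

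**Figure D5:**
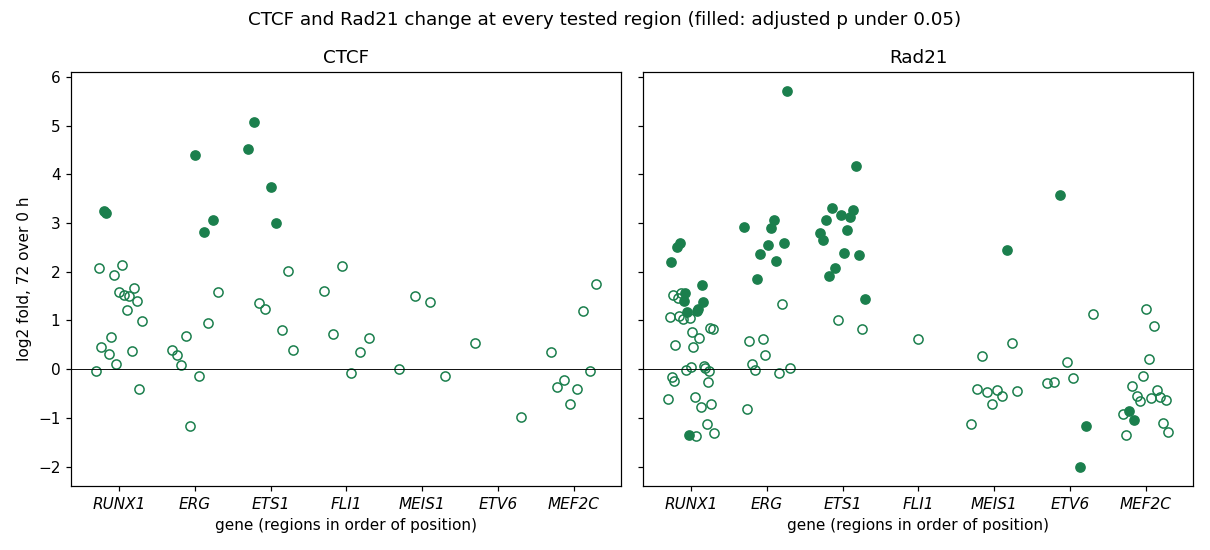
Log2 fold change from 0 to 72 h of every tested CTCF region and Rad21 region, by gene and in order of position; filled points passed the test at an adjusted p under 0.05. For Rad21, 14 of 16 ETS1 points are filled and above 0, and the called CTCF points, 9 in all, lie at RUNX1, ERG and ETS1.

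The deposited peak lists, called by the authors in single libraries, gave a count of peaks without the region tables. In the 7 windows together, the H3K27ac lists held 44 and 48 peaks at 0 h, 41 and 49 at 6 h, and then 133 and 126 at 72 h. Genome-wide these lists held 42125 and 42852 peaks in the untreated cells and 65267 and 66147 after 72 h, so the mean number rose 2.82-fold in these windows and 1.55-fold over the genome. The 72 h libraries were also the deepest of H3K27ac, with 26216577 and 27266241 counts against 19963875 and 21772218 at 0 h. The part of depth in these peak numbers was not tested. ERG went from 0 and 0 peaks at 0 h to 4 and 2 at 6 h and then 15 and 16 at 72 h, and ETS1 from 1 and 0 to 0 and 3 and then 32 and 29. FLI1 held none before 72 h, when its 2 libraries had 3 and 2 peaks. MEF2C had 14 and 17 at 0 h, 10 and 10 at 6 h, and then 14 and 14 at 72 h. Neither 72 h library thus held more MEF2C peaks than either 0 h library, while the whole lists grew 1.55-fold. Jun lists held 37 and 39 peaks at 0 h and 154 and 170 at 72 h, with the deeper libraries at 72 h, a ratio of 4.26 beside 2.87 for the whole lists (31637 and 35072 against 92329 and 99102 peaks). Rad21 lists held 34 and 57 at 0 h and 49 and 38 at 72 h, which overlap; the whole Rad21 lists had 34680 and 59005 peaks before and 33048 and 25687 after treatment.

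The 3 sets of related genes, counted by H3K27ac gene windows at 72 against 0 h, serve as the surroundings of these factors. Of 20 other hematopoietic factor genes, 4 were higher and 13 lower (median −0.51). The 4 were EGR1 (0.52), CBFB, the partner of RUNX1 (0.53), CEBPA, at 1.09 and 0.947 CPM at 72 h, and BCL11A, which had no counts at 0 h and 2.71 and 2.37 CPM at 72 h. Those that fell included IKZF1, from 800 and 806 to 173 and 178 CPM, the erythroid factor KLF1, from 333 and 343 to 82.1 and 82.0, and GATA1, from 455 and 441 to 266 and 274. Of 26 paralogs of the 7 genes, 14 were higher and 10 lower (median 0.22), among them RUNX3, from 4.77 and 6.96 to 68.0 and 65.7 CPM (3.50), FEV, of the ERG and FLI1 subfamily, from 6.02 and 5.32 to 36.6 and 36.8, and MEIS3 (2.05), and in the other direction MEF2B (−1.28) and MEIS2 (−0.50). Of 22 megakaryocyte and platelet genes, 7 were higher and 11 lower (median −0.10): THBS1 (4.67), the tetraspanin CD9 (2.57), VWF (2.35) and the integrin ITGB3 (0.92) rose, while P2RY1 (−2.41), PLEK (−1.64) and ITGA2B (−0.65) fell. The counts stand beside 35.1% higher and 53.2% lower over all gene windows, with a median of −0.30, and those of the megakaryocyte and platelet genes are near these shares. With total counts, where that median is −0.06, the 3 lists had 7 higher and 13 lower, 15 and 10, and 11 and 9, with medians of −0.27, 0.45 and 0.14, so the direction of the platelet list is not settled. In Jun, 1 of the 20, 7 of the 26 and 4 of the 22 were higher and 15, 11 and 12 lower, beside 28.3% and 48.3% over all gene windows, but with total counts 5, 16 and 13 were higher and 5, 5 and 5 lower.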

How the data were processed

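CUT&RUN of H3K27ac, Jun, CTCF and Rad21 in K562 gave 22 libraries. Per the submitters' processing notes, the tools were Trim Galore 0.4.3, BWA 0.7.17, SAMtools 1.9, deepTools 3.0.1, MACS2 and bedtools 2.26; these notes name both hg19 and hg38, and the region positions were used as GRCh38. The authors deposited 1 table per antibody with raw read counts per region, beside their own log2 fold changes and adjusted p-values; how they scaled and tested these is not given in the sources used here. The deposited peak lists, 1 per library, give a fold ratio over background and −log10 p and q values per peak. Some table starts equal a peak start as deposited (18783 of 95436 for H3K27ac) and 0 would if the tables counted from 1, so starts were taken to count from 0 and 1 was added.

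Counts were tested with edgeR 4.0.16 (quasi-likelihood test, filterByExpr, TMM, all times of an antibody, no block) over all regions of a table, with Benjamini-Hochberg adjustment and calls at 0.05; SE is the log2 fold change over the root of F. Counts of regions within 50 kb of each RefSeq gene were summed and tested alike. The script was tested on simulated counts. Named regions were, per gene and antibody, the one with the highest mean, those with the highest and lowest called fold change among brighter regions whose libraries did not overlap, and those over a RefSeq promoter; others are said to be chosen after their values were seen. The genes and gene lists were chosen with earlier results of these data known. Alternatives were total counts, DESeq2 1.42.0 (size factors and Wald test), other filters, the gene span alone, a replicate block and each library left out. Total counts included the mitochondrial regions for every antibody. For CTCF these held 17.8% and 22.1% of counts at 0 h and 9.55% and 9.63% at 72 h. A Jun fit without mitochondrial regions was added after seeing the data. So were total counts for the gene lists and for the overlap of H3K27ac and Jun. Intervals and floors cover counting error only. Some marker genes are not reported here.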

Additional observations from a re-analysis of the deposited data

How the results depend on the processing

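Of 2727 alternative values for single regions and gene sums, 2545 kept their side of the threshold, 130 lost the call, 45 gained one and 7 reversed. A value was taken as reversed if its sign changed and it was called in the report or under the alternative. A change of sign without any call was counted among the 2545. All 7 reversals came from scaling by total counts: the H3K27ac sum of RUNX1 at 6 and 72 h against 0 h (0.11 and 0.11), the Jun sum of MEIS1 at 72 h against 0 h (0.40) and 6 h (0.34), the Jun sum of MEF2C at 72 against 6 h (0.07), and the Jun regions chr21:34982938-34984174 of RUNX1 (0.04) and chr5:88826955-88827957 of MEF2C (0.05) at 72 against 0 h. With a mean count of at least 50, fewer regions were tested and the calls were 94 for H3K27ac at 72 against 0 h (147 in the report), 84 at 72 against 6 h (130), 0 and 1 for CTCF at 72 h against 0 and 6 h (9 and 3), and 4 for Rad21 (40). The gene span alone left 47 Jun calls at 72 against 6 h and DESeq2's Wald test 48 (74). DESeq2's Wald test gave 3 and 0 CTCF calls at 72 h against 0 and 6 h and 23 Rad21 calls, and total counts gave 19 and 14 CTCF calls. Fitting the compared times alone gave 32 Jun calls at 6 against 0 h (49) and 20 CTCF calls at 72 against 0 h; the cause was not tested. With total counts in both tables, 100% of the H3K27ac regions over a lower Jun region were lower (59.4% in the report), with fewer such regions. Jun peaks at 72 over 0 h had a ratio of 4.26, and 5.51 once peaks under 10 in −log10 q were left out.

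With each library left out in turn, H3K27ac calls ranged from 87 to 101 (6 against 0 h), 138 to 149 (72 against 0 h) and 109 to 129 (72 against 6 h); Jun calls from 34 to 47, 90 to 155 and 34 to 76; CTCF calls from 0 to 1, 0 to 16 and 0 to 2; and Rad21 calls from 25 to 38. Peak ratios of 72 over 0 h ranged from 2.7 to 2.94 for H3K27ac, 4.05 to 4.47 for Jun, 1.26 to 2.11 for CTCF and 0.763 to 1.28 for Rad21. The labels do not say what a replicate number marks, and for no antibody with 3 times did every correlation of the deviations of same-numbered libraries pass 0.1, so the numbers were not taken as pairs: the correlations were 0.0943, −0.00285 and 0.0165 for H3K27ac, 0.0532, 0.000834 and 0.0149 for Jun, 0.132, 0.0888 and 0.115 for CTCF, and 0.0621 for Rad21. A replicate block gave 102, 146 and 130 H3K27ac calls, 46, 131 and 70 Jun calls, 0, 12 and 3 CTCF calls and 44 Rad21 calls. Over all CTCF regions the block raised the calls from 1542 to 1909, from 3951 to 7141 and from 1266 to 2229. A fit without mitochondrial regions gave 50, 136 and 72 Jun calls. The part of depth in the number of CTCF calls, at 2553677 to 6068421 counts per library, was not tested.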

Other observations

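The authors' deposited table gives each region a time-course label, and these labels did not track the log2 fold changes beside them. Among all H3K27ac regions that the authors' deposited table labels downEarly, its median log2 fold change at 72 h was 2.82 and 71.4% were higher, against 2.88 and 72.8% for upLate and −0.21 and 43.4% for static. Around the 7 genes, 19 H3K27ac regions are labelled downEarly in the authors' deposited table, and 16 of them are higher at 72 h there, with a median of 4.24. At ERG 11 of the 21 regions that were higher at 72 h carry the label downEarly, and at RUNX1 6 of the 17 that were lower carry the label upLate. For Rad21, the labels up and down in the authors' deposited table had medians of 2.47 and −2.27. The sign of the log2 fold change in the authors' deposited table was the one found from the counts at 147 of 147 called H3K27ac regions, 136 of 136 for Jun, 9 of 9 for CTCF and 40 of 40 for Rad21. The labels were therefore not used above.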
